A study of Arabidopsis thaliana with 6 samples.

Results

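GSTU25, UGT73B4 and AT2G21640 are 3 stress-responsive Arabidopsis thaliana genes, each measured by 1 probe set that the platform annotation gives to that gene alone, 3 of 22746 probe sets and of 13350 singly named genes in all. They were chosen by their difference between estradiol and DMSO in each pair of arrays and by their level on each array against a filter value of 3.56 on the log2 scale, the 40th percentile of the table. Those values are therefore described here without a test. GSTU25 and UGT73B4 were at least 2-fold lower with estradiol at 3 h and at least 2-fold higher with estradiol in one 5 h pair, while in the other 5 h pair both genes lay under the filter value with either treatment. AT2G21640 differed by less than 2-fold in every pair, and its sign was negative, positive and negative. The working name for these genes, an early response opposite to the late one, thus held for GSTU25 and UGT73B4 between 3 h and replicate 1 of 5 h, and for no gene did both 5 h pairs stand 2-fold away in the direction opposite to 3 h.

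Shoots came from 2-week-old Col-0 seedlings of MYB112-IOE line 1, in which estradiol induces the transcription factor gene MYB112, and each of 6 Affymetrix ATH1 arrays held the RNA of 1 sample. The groups were 10 µM β-estradiol for 3 h (n = 1), DMSO for 3 h (n = 1), estradiol for 5 h (n = 2) and DMSO for 5 h (n = 2). All groups carried the construct, only 1 line was used, and plants lacking it were not analysed here, so effects of estradiol itself and of MYB112 cannot be told apart. The labels do not say whether replicates came from separate cultures, so p-values measure only the spread between these samples.

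Plants detoxify foreign or reactive compounds in steps: glutathione transferases join glutathione to them, UDP-glycosyltransferases join sugars to them, and transporters move the products out of the cytosol. Genes for these enzymes are commonly switched on together by chemicals, oxidised lipids and oxidative stress. GSTU25 encodes a tau-class glutathione transferase and UGT73B4 a UDP-glycosyltransferase. AT2G21640, known as UPOX, is no enzyme of this kind but a widely used marker gene of oxidative stress and of signalling from impaired mitochondria to the nucleus.

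Array medians ranged from 5.04 to 5.83. The lowest value, shared by 4842 to 6007 probe sets on each array, was 2.1 in the 3 h pair, 2.14 in replicate 1 of 5 h and 2.16 in replicate 2 of 5 h. Each pair thus appears to have been normalized on its own, and levels set across pairs below carry that limit. No probe set was named MYB112 (0 in the annotation), so its level was not analysed here. The shoot markers RCA, LHCB4.1 and PRK, genes of photosynthetic carbon fixation and light harvesting, lay between 11.24 and 13.84 on all arrays. Of 4 named root markers, EXPA7, GH9C1 and EXPA18 reached at most 2.96, and AT1G62500 lay between 7.9 and 8.62.

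In the 3 h pair, GSTU25 was at 9.44 with DMSO and 7.89 with estradiol. Both arrays stood far above the filter value, and the difference of −1.55 was a 2.93-fold lower level with estradiol. In replicate 1 of 5 h the order turned, with 2.92 for DMSO and 6.14 for estradiol. That difference of 3.22, a fold of 9.32, was the third highest of the 14520 probe sets above the filter, but its DMSO value lay near the floor of the array, so the size of the fold depends on that floor. In replicate 2 of 5 h GSTU25 was at 2.70 with DMSO and 2.54 with estradiol, both under the filter value, where a difference of −0.16 has no clear order.

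At 5 h GSTU25 was above the filter in replicate 1 with estradiol alone, and both DMSO values were near the floor, where a small spread says little. The mean level was 4.34 ± 2.55 with estradiol and 2.81 ± 0.16 with DMSO (SD, n = 2 arrays each), and the estradiol group overlapped the DMSO group. The mean difference over the 3 pairs was 0.50 ± 2.45 (SD, n = 3 pairs). Without replicate 1 of 5 h it was −0.86, so that pair alone set its sign.

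UGT73B4 had the same sign as GSTU25 at 3 h and in replicate 1 of 5 h, with smaller differences. At 3 h it was at 6.75 with DMSO and 5.62 with estradiol, a difference of −1.13 or 2.19-fold lower. In replicate 1 of 5 h it was at 2.98 with DMSO and 4.49 with estradiol, a difference of 1.51 or 2.85-fold higher. Those were also the values of UGT73B4 nearest the filter value, 4.49 above it and 2.98 below it. The DMSO value lay near the floor of the array, so the size of this fold depends on that floor too. In replicate 2 of 5 h the levels of 2.51 with DMSO and 2.58 with estradiol were again both under the filter. At 5 h the mean was 3.54 ± 1.35 with estradiol and 2.74 ± 0.33 with DMSO (SD, n = 2 each), with overlapping groups. The mean difference over 3 pairs, 0.15 ± 1.32 (SD, n = 3), became −0.53 without replicate 1 of 5 h.

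AT2G21640 was well above the filter on all 6 arrays, while GSTU25 and UGT73B4 each reached it on 1 of 4 arrays at 5 h. It was at 10.05 with DMSO and 9.75 with estradiol at 3 h. It was at 7.45 and 7.60 in replicate 1 of 5 h, and at 8.29 and 7.84 in replicate 2. The differences of −0.30, 0.15 and −0.45 were smaller than the 2-fold mark, and 16.1%, 47.3% and 17.8% of probe sets lay at least as far from 0 in these pairs. At 5 h the mean was 7.72 ± 0.17 with estradiol and 7.87 ± 0.59 with DMSO (SD, n = 2), and both estradiol values lay between the DMSO values. Its mean difference over 3 pairs was −0.20 ± 0.31 (SD, n = 3).

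**Figure D1:**
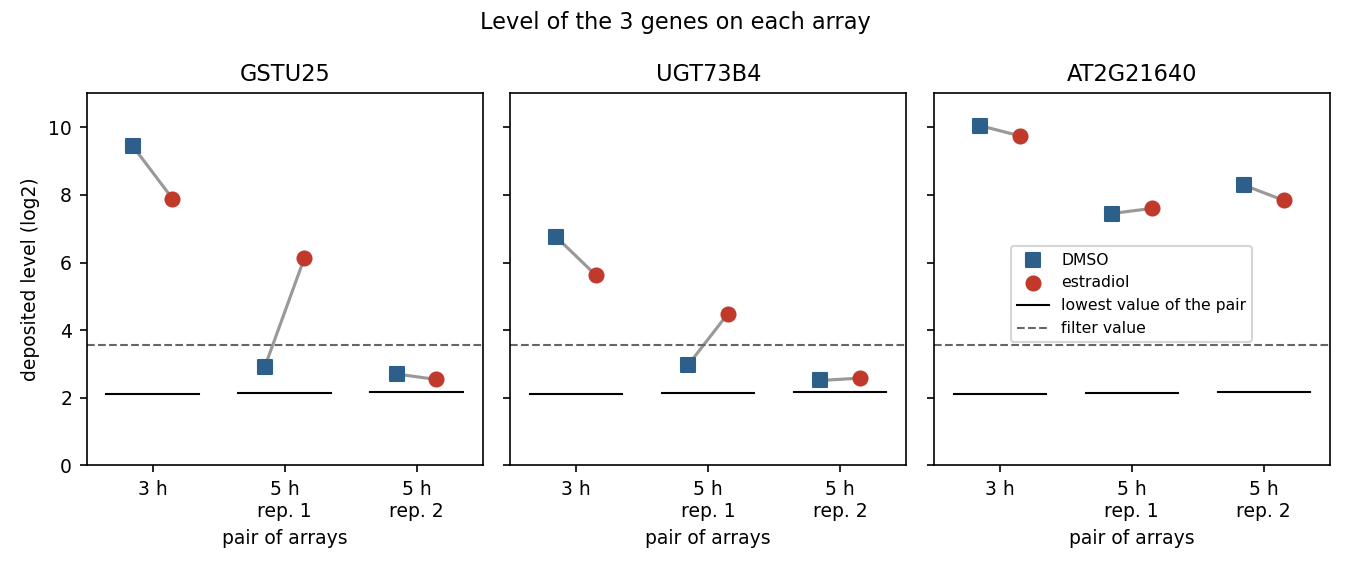
Deposited level (log2, vertical axis) of each gene on the DMSO arrays (blue squares) and estradiol arrays (red circles) of the 3 pairs (horizontal axis), with a grey line joining each pair, the filter value of 3.56 (dashed) and the lowest value of each pair (short black lines). GSTU25 and UGT73B4 are highest at 3 h, cross the filter in replicate 1 of 5 h with estradiol and lie under it in replicate 2; AT2G21640 stays above 7 throughout.

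Ordered by level, GSTU25 ran from DMSO at 3 h (9.44) through estradiol at 3 h (7.89) and estradiol in replicate 1 of 5 h (6.14) to the 3 values under the filter, which have no order among themselves. UGT73B4 had the same order of its 3 highest arrays, at 6.75, 5.62 and 4.49. For AT2G21640 both 3 h arrays were highest and the 4 arrays of 5 h lay within 7.45 to 8.29, where estradiol and DMSO did not differ beyond their spread.

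At 3 h, 2 of the 3 genes were at least 2-fold lower with estradiol, where 0.461% of the 14520 probe sets were. In replicate 1 of 5 h the same 2 were at least 2-fold higher, against 0.944% of probe sets. In replicate 2 of 5 h, 0 of 3 were 2-fold apart in either direction, against 3.13%. Both marks, 2-fold lower at 3 h and 2-fold higher in replicate 1 of 5 h, were met by 4 probe sets (0.0275%), of which GSTU25 and UGT73B4 were the 2 with a single named gene. No probe set was 2-fold lower at 3 h and 2-fold higher in both 5 h pairs (0 of 14520), and none showed the reverse turn between 3 h and replicate 1 of 5 h (0 of 14520). Since the genes were chosen on these differences, nothing is read from those shares. All 3 passed the filter of at least 2 arrays at the filter value over 6 arrays, GSTU25 and UGT73B4 through 3 arrays each. Within 5 h GSTU25 and UGT73B4 reached it on 1 of 4 arrays each, so those genes did not enter the 5 h fit, and AT2G21640 reached it on 4 of 4.

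**Figure D2:**
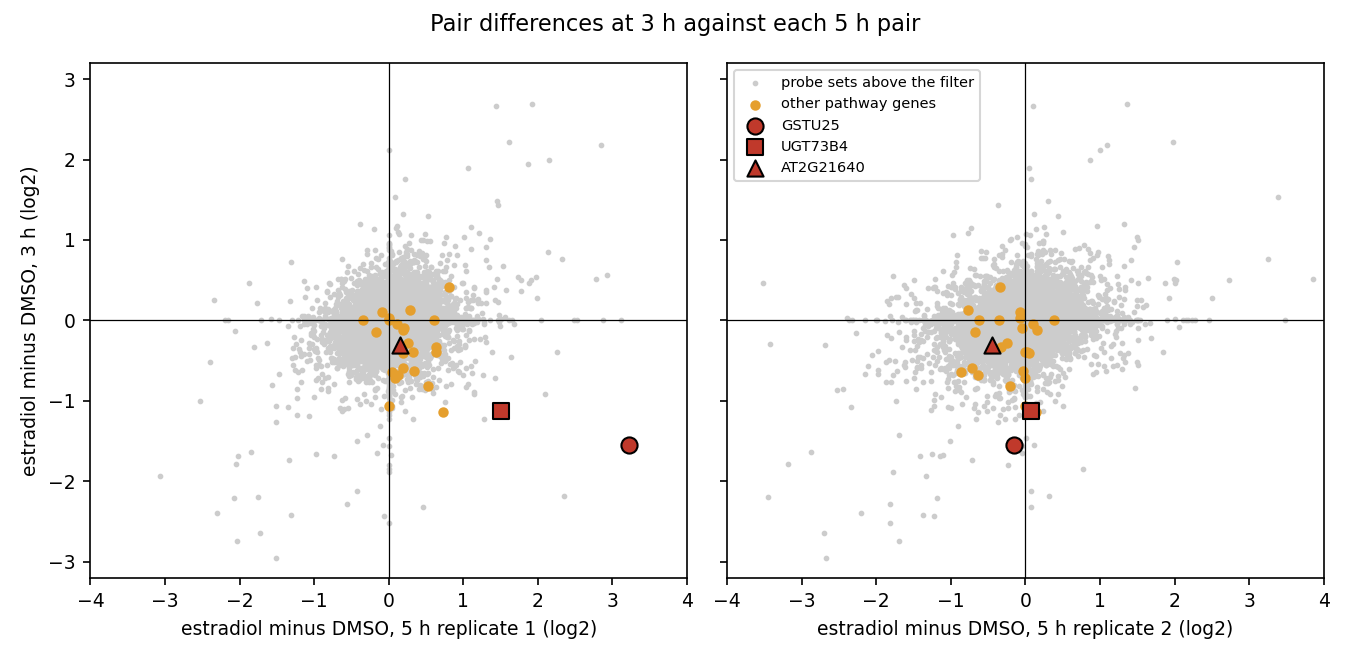
Estradiol minus DMSO (log2) at 3 h (vertical axis) against replicate 1 (left) and replicate 2 (right) of 5 h (horizontal axes), for probe sets above the filter (grey), other pathway genes (orange) and the 3 genes (red); 2 and 3 probe sets lie outside the axes. GSTU25 and UGT73B4 lie at the lower right on the left and near the vertical zero line on the right.

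The rest of the pathway was followed through 5 lists fixed by gene code or family symbol, without the 3 genes themselves. Together they had 31 named genes, of which 24 passed the filter. At 3 h 17 were lower with estradiol, 5 higher and 2 equal, with a median difference of −0.31, beside a median of −0.01 and 50.1% lower over all probe sets above the filter. In replicate 1 of 5 h 3 were lower, 19 higher and 2 equal (median 0.19), beside a median of 0.00 and 47.7% higher over all. In replicate 2 of 5 h 15 were lower, 6 higher and 3 equal (median −0.07), beside −0.04 and 55.3% lower over all. Lower at 3 h and higher in replicate 1 of 5 h were 15 of the 24, where 21.8% of all probe sets were. Lower at 3 h and higher in both 5 h pairs were 5 of the 24, where 9.16% were. The 15 include GSTU22, UGT73C1 and NDB4, and the 5 include NDB4, whose 5 h levels all lay under the filter. As the lists were chosen with earlier results of these data known, nothing is read from these shares.

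None of these genes passed a test. The main limma fits left out the pairing of arrays, so differences between the 5 h pairs entered their spread. At 5 h limma called 0 of 19, with 0 at an unadjusted p under 0.05 and a background of 0.0071% of all probe sets called higher and 0% lower. Over both times it called 0 of 24, again with 0 at an unadjusted p under 0.05 and a background of 0.00689% higher and 0% lower. The fit of the 5 h effect minus the 3 h effect called 0 of 24, with 0 at an unadjusted p under 0.05 and a background of 0% in either direction. When pairs entered as a block, 0 genes were called in each limma fit as well, with 2, 0 and 4 genes at an unadjusted p under 0.05. Over all probe sets 1167 of 14078, 1415 of 14520 and 425 of 14520 lay under that mark in these fits. Of the 4, AT2G32020, GSTU22 and NDB4 were under the filter on all 5 h arrays, where a small spread says little. At 3 h there was 1 array per treatment and no test.

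Genes known to respond to impaired mitochondria were the list with the lowest 3 h median. Of 17 fixed entries 8 genes other than AT2G21640 were named and all 8 passed the filter. At 3 h 50.1% of all probe sets above the filter were lower with estradiol, and 0.461% were at least 2-fold lower. Of these list genes 8 of 8 were lower, with a median of −0.64 and a range from −1.14 to −0.33, and 2 were at least 2-fold lower. The lowest were NDB4, an external alternative NAD(P)H dehydrogenase of mitochondria, at 6.56 with DMSO and 5.42 with estradiol, and AT2G32020, an acetyltransferase-like gene, at 6.98 and 5.91.

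In replicate 1 of 5 h, 7 of these 8 were higher and 1 equal, with a median of 0.26, beside 47.7% higher over all probe sets above the filter. The equal gene, AT2G32020, lay under the filter on all 5 h arrays, at 2.14 in replicate 1 and 2.45 in replicate 2. NDB4 differed by 0.73 in replicate 1, between values of 2.2 and 2.93 that both lay under the filter, as its replicate 2 values did. AT2G04050, a MATE-type efflux carrier, differed by 0.63, and AT5G09570, a small mitochondrial twin-cysteine protein gene, by 0.19. In replicate 2 of 5 h 5 were lower, 2 higher and 1 equal, with a median of −0.12, beside 55.3% lower over all. The lowest of the 8 there were AT2G41730, at −0.86, and AT5G43450, a 2-oxoglutarate-dependent dioxygenase-like gene, at −0.71. Those had been at −0.64 and −0.59 at 3 h and at 0.05 and 0.19 in replicate 1 of 5 h. AT2G21640 had the same signs in the 3 pairs as these last genes. NDB2, a relative of NDB4 named after its values were seen, was at −0.63, 0.34 and −0.03.

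The xenobiotic response list, which holds detoxification enzymes and efflux carriers, had 6 genes other than GSTU25 and UGT73B4 named among 30 entries. At 3 h 4 were lower and 2 higher (median −0.36), beside 50.1% lower over all probe sets above the filter. In replicate 1 of 5 h 6 of 6 were higher (median 0.46), beside 47.7% higher over all. In replicate 2 of 5 h 4 were lower, 1 higher and 1 equal (median −0.34), beside 55.3% lower over all. None of the 6 genes was 2-fold apart in any pair (0 of 6). AT3G04000, an aldehyde reductase of chloroplasts, was at 0.42, 0.81 and −0.34 in the 3 pairs. AER, an alkenal reductase that acts on reactive carbonyls, was at 0.13, 0.29 and −0.77. AT2G04070, a MATE-type carrier, was at −0.68, 0.13 and −0.64, and GSTU22 at −0.71, 0.09 and 0.00. The 5 h levels of GSTU22, 2.16 to 2.66, were under the filter, so its 5 h differences have no clear order. The UGT73B5 values are given with the family.

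Other glutathione transferases differed less between treatments than GSTU25 at 3 h and in replicate 1 of 5 h. GSTU25 was chosen on these differences, so its larger ones are a description only. Of 12 other members named, 8 passed the filter, and their differences ranged from −0.71 to 0.11 at 3 h, from −0.34 to 0.61 in replicate 1 of 5 h and from −0.68 to 0.38 in replicate 2. The medians were 0.00, 0.00 and −0.07. The largest mean differences over the 3 pairs were 0.33 ± 0.31 for GSTU26, 0.02 ± 0.16 for GSTU16 and −0.01 ± 0.05 for GSTL3 (SD, n = 3). The smallest were −0.33 ± 0.30 for GSTU27, −0.23 ± 0.21 for GSTU20 and −0.21 for both GSTU22 and GSTF4. All 5 h levels of GSTU22 and GSTF4 lay under the filter.

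GSTU24 and GSTU26, also tau-class genes, flank GSTU25 on its chromosome in the RefSeq annotation of TAIR10.1. GSTU26 was at 3.21 on both 3 h arrays, under the filter, and at 4.46 to 5.39 at 5 h, with differences of 0.00, 0.61 and 0.38. Its level was thus lowest at 3 h, where that of GSTU25 was highest. With the pair as a block GSTU26 was at 0.50 in the limma 5 h fit (SE 0.13, higher in 2 of 2 pairs, unadjusted p = 0.0406), with an adjusted p of 0.58. GSTU20 was at −0.34 there (SE 0.05, lower in 2 of 2 pairs, unadjusted p = 0.012, adjusted p = 0.58). GSTU24 had no probe set named for it alone (0).

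The UGT73 subfamily had 6 other named members, of which 3 passed the filter. UGT73B5 was at 7.41 with DMSO and 7.02 with estradiol at 3 h, at 4.87 and 5.51 in replicate 1 of 5 h, and at 3.74 and 3.76 in replicate 2, with differences of −0.39, 0.64 and 0.02. At 3 h and in replicate 1 of 5 h those are the signs of UGT73B4. UGT73B5 is the neighbour of UGT73B4, and the annotated ranges of the pair overlap in RefSeq; a signal common to both transcripts was not tested. UGT73B1 was at −0.12, 0.19 and 0.16, and UGT73C1 at −0.39, 0.33 and 0.00. The 5 h values of UGT73C1, 2.16 to 3.01, were under the filter, so its 5 h differences have no clear order. The medians of the 3 were −0.39, 0.33 and 0.02, and those of all 6 with no filter were −0.07, 0.10 and 0.00. UGT73D1, UGT73C7 and UGT73C2 lay at 2.78 or less on all arrays.

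Of the list of antioxidant and glutathione enzymes, 2 of 15 entries were named. GR1, the cytosolic glutathione reductase, was at −0.28, 0.26 and −0.25, and GR, the organellar glutathione reductase, at −0.05, 0.11 and 0.10.

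**Figure D3:**
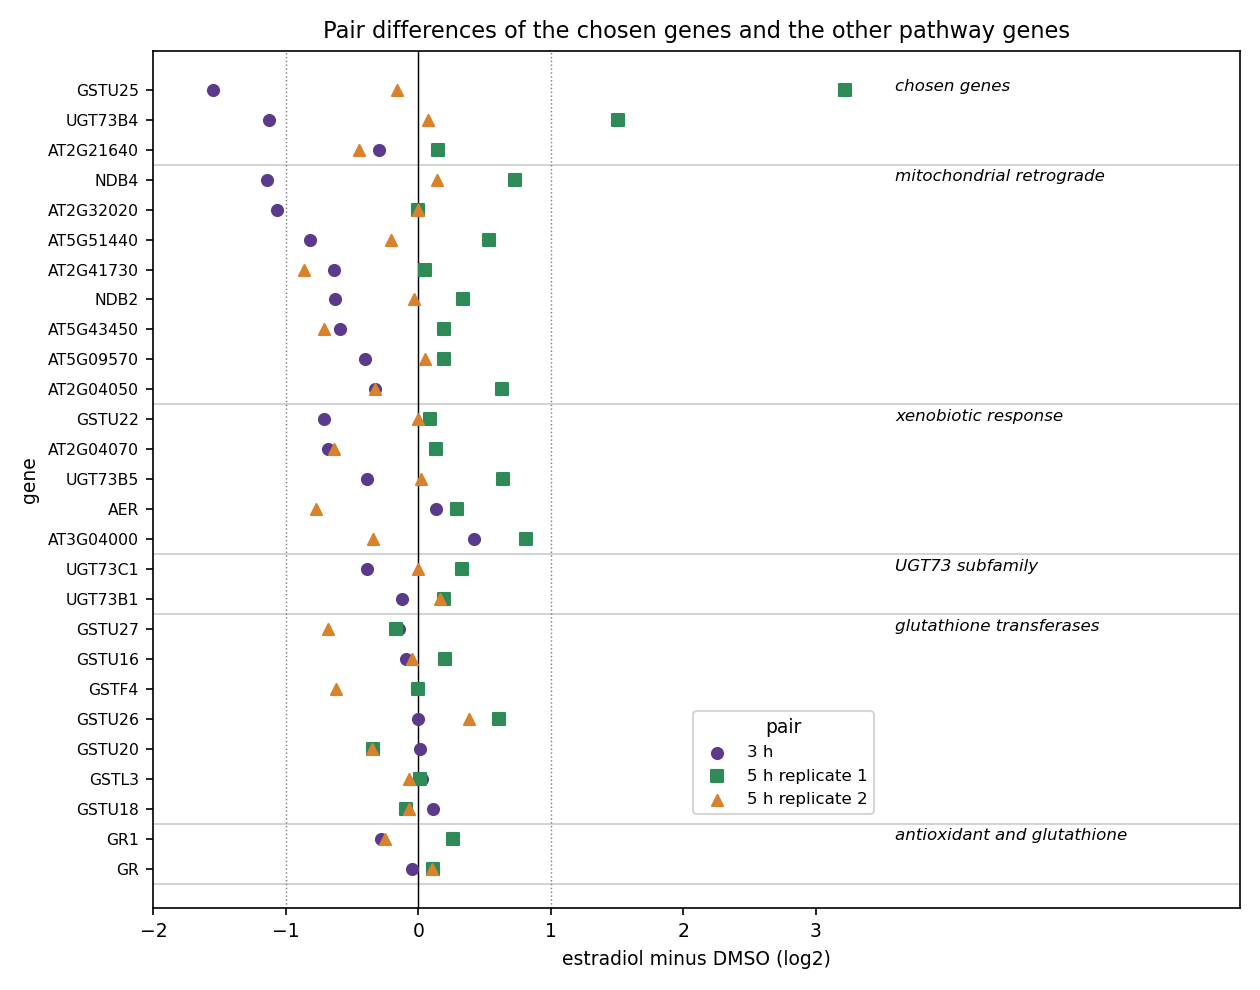
Estradiol minus DMSO (log2, horizontal axis) in the 3 h pair (purple circles) and in replicates 1 (green squares) and 2 (orange triangles) of 5 h for the 3 genes and for the 24 other pathway genes above the filter (vertical axis), grouped by list, each gene under the first list that holds it; dotted lines mark 2-fold. All 8 mitochondrial-response genes lie left of 0 at 3 h. Of the 27 genes drawn only GSTU25 and UGT73B4, which were chosen on these differences, pass 2-fold in replicate 1 of 5 h.

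The level under DMSO also differed between the times. GSTU25 stood at percentile 85.0 of the probe sets on the 3 h DMSO array and at 35.7 and 36.2 on the 5 h DMSO arrays. UGT73B4 stood at 57.1, 36.1 and 34.5, and AT2G21640 at 89.4, 69.7 and 79.2. Ranks within an array do not change when the whole array is rescaled, but the 3 h group has 1 DMSO array, so no test was made. The 3 genes were also chosen by their level on each array. As GSTU25 and UGT73B4 reached the filter on 1 of 4 arrays at 5 h, their higher ranks at 3 h are a description only.

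The same order was seen in the xenobiotic and mitochondrial lists, where 13 of 13 other genes above the filter ranked higher under DMSO at 3 h than on either 5 h array, with median percentiles of 85.7, 58.4 and 58.9. Over all 14520 probe sets 35.2% did. As genes that passed the filter through the 3 h arrays alone had to rank higher there, the count was repeated over genes with at least 2 arrays of 5 h at the filter, and was 10 of 10, beside 33.5% of all such probe sets. The glutathione transferases other than GSTU25 did not all share this order, with 2 of 8 higher and 4 of 8 lower at 3 h than at both 5 h arrays. Over all 14520 probe sets 35.2% were higher and 5263 lower, so these counts are not read as a family trait. The 2 higher genes, GSTU22 and GSTF4, passed the filter through the 3 h arrays alone. Time in treatment and the sampling or processing of the single 3 h pair cannot be told apart here.

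**Figure D4:**
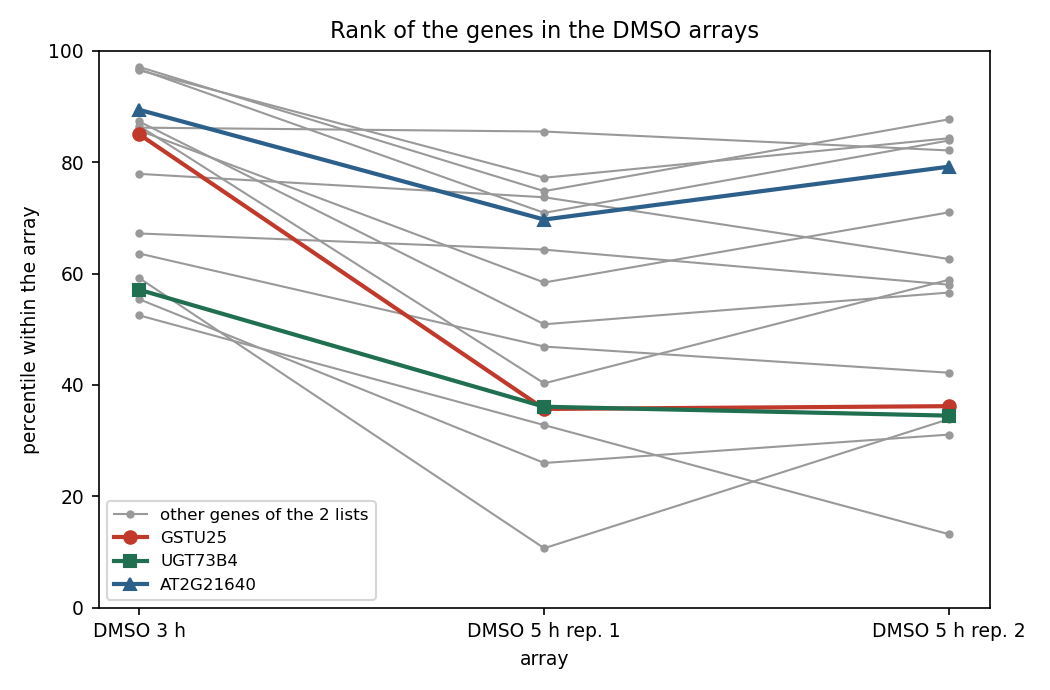
Percentile of each gene among all probe sets of an array (vertical axis) on the 3 DMSO arrays (horizontal axis), for GSTU25 (red circles), UGT73B4 (green squares), AT2G21640 (blue triangles) and the 13 other genes of the xenobiotic and mitochondrial lists above the filter (grey). All of them rank highest on the 3 h array, as 35.2% of all probe sets above the filter do, and GSTU25 goes from 85.0 to 35.7 and 36.2. Genes that passed the filter through the 3 h arrays alone, GSTU22, NDB4 and AT2G32020 among them, had to rank higher there. The 3 chosen genes are a description only.

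Likeness to each gene was measured as the Euclidean distance between the differences in the 3 pairs (log2), over named probe sets above the filter. The nearest to GSTU25 was UGT73B4, at 1.78. It was followed by AT1G66090 (1.94) and AT1G72920 (2.06), which encode proteins with a TIR domain of the kind found in immune receptors, by PRX52 (2.30), a class III peroxidase, and by AT4G01870 (2.38). Nearer than AT4G01870 were also 12 unnamed or several-gene probe sets, and 0 probe sets lay within 1 unit of GSTU25. In contrast to GSTU25, AT1G66090 and AT1G72920 were also higher in replicate 2 of 5 h, by 1.06 and 0.58. These distances use the differences on which GSTU25 was chosen, and 3 of the 6 levels behind them were under the filter, so they are a description only.

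The nearest to UGT73B4 was PRX52, at 0.57, with differences of −0.79, 1.06 and 0.00. AT3G02840 and NDB4 followed at 0.78 each, and AT2G18190 and AT5G16200 at 0.82 each, with 23 probe sets within 1 unit. Nearer than the fifth named gene were also 6 unnamed or several-gene probe sets. PRX52 lay at the lowest value of 2.16 on both arrays of replicate 2 of 5 h, so it too had no measured difference in that pair. For AT2G21640 the nearest were AT1G79070 (0.04), AT1G23230 (0.05), AT1G20410 (0.06), AT1G72390 (0.07) and AT1G76880 (0.08), with 2 unnamed or several-gene probe sets nearer than the last. As 12908 probe sets lay within 1 unit of AT2G21640, its profile was a common one.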

How the data were processed

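The authors deposited 1 value per probe set and array on a log2 scale. Base 2 was taken from their range, 2.1 to 15.35. The submitters' processing notes name GCRMA and RMA with no role or version, and further steps are not given in the sources used here. Of 22810 probe sets, 64 controls were left out. Names came from the platform annotation, updated by gene number to RefSeq (TAIR10.1): 13513 probe sets had 1 gene (13436 matched), 503 several and 8730 were unnamed here. Probe sets with at least 2 arrays at 3.56 or more entered the fits, 14078 at 5 h and 14520 over all 6 arrays. Limma 3.58.1 in R 4.3.3 (mean-variance trend, two-sided, Benjamini-Hochberg, threshold 0.05) was fitted to all of them. The 5 h fit and the fit over both times were tested on simulated data, with a pair effect only where a block was fitted. The fit of the difference between times was not tested in this way. These values do not show signal over background, and precision is limited by the number of arrays.

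The genes and lists were chosen with earlier results of these data known. Named list genes are those with the 3 largest and 3 smallest mean differences in each list. Also named are the 5 nearest profiles of each gene and family neighbours on the chromosome. Within 5 h, replicate 1 minus replicate 2 with estradiol followed the same difference with DMSO (Pearson r over probe sets of 0.907). The numbers were therefore taken to pair estradiol and DMSO arrays. Deviations from the treatment mean also went together (r of 0.940, 0.927 and 0.907 in the 3 pairs). Those hold the difference between times as well, so they say little on pairing, and 3 h has 1 array per treatment. The main fits have no block, and the block is an alternative beside quantile normalization, median centring, no filter, no trend and leaving out arrays. Ranks on the DMSO arrays, with both filters, were added after seeing the data. The planned promoter motif search was not run, and no sequences are shown.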

Additional observations from a re-analysis of the deposited data

Results flagged for a closer look

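Some genes differed in both 5 h pairs with a sign opposite to that of the 3 h pair. UGT73B4 did, with a mean 5 h difference that lay 1.92 above its 3 h difference, which was not tested because the gene was chosen on these values. Its replicate 2 value at 5 h came from levels under the filter, as did all 5 h values of NDB4. Among the other pathway genes the same quantity was 1.58 for NDB4, 0.72 for UGT73B5, 0.52 for AT5G09570, 0.30 for UGT73B1 and 0.16 for GR. It was −0.36 for GSTU20 and −0.19 for GSTU18. In the limma fit of the difference between times the adjusted p was 1 for each of these 7 genes, and 0.988 was the smallest with the pair as a block. The single 3 h arrays were assumed there to vary like those of 5 h. GSTU25 is not among them, since its replicate 2 value at 5 h was −0.16. A difference of any size counted here, and some were small. At 3 h GSTU20 was at 0.01 and GR at −0.05, and in replicate 2 of 5 h UGT73B5 was at 0.02 and AT5G09570 at 0.05. Lower at 3 h and higher in both 5 h pairs were 9.16% of all probe sets above the filter. The share with the reverse signs was not counted, so nothing is read from these signs.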

How the results depend on the processing

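The 27 alternative values of the 3 genes' differences each stayed within the gene's SD over the 3 pairs. A mean without 1 of 3 pairs cannot move by that much, so for those means this mark tests nothing. The SD is also wide where the pairs disagree, as for GSTU25 (2.45). GSTU25 in replicate 1 of 5 h was 3.34 after quantile normalization and 3.16 after median centring. Mean differences without 1 pair ranged from −0.86 to 1.53 for GSTU25, −0.53 to 0.79 for UGT73B4 and −0.38 to −0.08 for AT2G21640. The glutathione transferase median was −0.05 in replicate 1 of 5 h and 0.01 in replicate 2 after median centring, and −0.02 in replicate 2 with no filter; the cause was not tested. With no filter the UGT73 medians were −0.07, 0.10 and 0.00 in the 3 pairs, because members at the floor then enter. After median centring the UGT73 median in replicate 2 was 0.10 and that of the mitochondrial list −0.04. Counts of 2-fold probe sets stayed within 1.5 times.

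The limma count of 1 at 5 h was 0 with the pair as a replicate block, after quantile normalization, after median centring, with no filter and with no trend, and 0 to 1 without single arrays (0 without either estradiol array). Over both times the count of 1 was 0 with the block, after quantile normalization, with no filter and with no trend, and 0 to 1 without single arrays (0 in all but the fit without the 3 h DMSO array). The cause was not tested. The calls of the main fits were not among the other pathway genes, and which probe sets the alternatives called was not checked. The difference between times had 0 calls in all 9 alternatives that could be fitted. Values at the floor limit what can be said of GSTU25 and UGT73B4 at 5 h.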
